A study of Mus musculus with 16 samples.

Results

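The cluster of miR-183, miR-96 and miR-182 is a group of 3 microRNA (miRNA) genes that are copied into RNA as a single primary transcript, from which 3 mature miRNAs are cut. Its members, mmu-miR-183, mmu-miR-96 and mmu-miR-182, were followed across 16 microarrays of mouse dorsal skin. They were taken by name from the 577 miRNAs on the array, and they were chosen with their signals on these arrays already known, so that every difference between groups given for them is a description. Where the fit called a member, the call is stated beside the share of all miRNAs called, and nothing is read from it. All 3 members were detected on all 16 arrays by the scanner software.

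The study asked which skin miRNAs depend on PPARβ/δ, a nuclear receptor encoded by Ppard, in skin exposed to ultraviolet light. It held 4 groups of 4 arrays, each array carrying RNA of the whole dorsal skin: wild-type Ppard+/+ mice without irradiation (WT no UV), Ppard-/- mice without irradiation (KO no UV), Ppard+/+ mice irradiated over 12 weeks (WT UV) and Ppard-/- mice irradiated over 12 weeks (KO UV). Irradiated mice received UVB at 70 mJ/cm2, 3 times per week, and their skin was free of lesions when it was taken. All mice were hairless females on the mixed SKH1-C57/Bl6-SV129 background, the genotypes were littermates, and the control mice were sham-manipulated and matched for age. The study's methods give an age of 8 to 12 weeks and do not say at what point of the experiment. Irradiated skin was taken after 12 weeks of exposure, and the age at that time is not given. The label Ppard-/- names a deletion in the whole animal and not in keratinocytes alone. Values given group by group begin with WT no UV, go on with KO no UV, then WT UV, and end with KO UV.

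A miRNA pairs with messenger RNAs mainly through its seed, bases 2 to 8 from its 5′ end, and lowers the amount or the translation of the messages it pairs with. The miR-183 cluster is conserved among animals and is best known from sensory epithelia: hair cells of the ear, photoreceptors and olfactory neurons express it strongly, and changes in the seed of miR-96 cause progressive hearing loss. Its members are also raised in many carcinomas and in melanoma, where miR-182 and miR-96 are known to act on messages of FOXO transcription factors. The mature sequences are shown because miR-183 and miR-182 are alike over most of their length, which bears on how far an array can separate them. How far the probes separate the members was not tested. They are those of RefSeq, read 5′ to 3′ with the seed in capitals.

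mmu-miR-183-5p: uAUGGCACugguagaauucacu
mmu-miR-96-5p: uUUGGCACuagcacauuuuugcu
mmu-miR-182-5p: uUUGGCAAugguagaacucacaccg

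No pair of members had the same seed. Counted base by base from the 5′ end, miR-183 and miR-96 shared 6 of 7 seed bases, miR-96 and miR-182 shared 6 of 7, and miR-183 and miR-182 shared 5 of 7. The run UGGCA stood in the seed of all 3 members, and 7 of the 1738 mature mouse miRNAs in the table, or 0.403%, held it there. Over their whole length miR-183 and miR-182 were the most alike, with 18 of 22 bases identical, against 13 of 22 for miR-183 and miR-96 and 12 of 23 for miR-96 and miR-182. The seed of miR-96 was also that of miR-1271-5p, whereas the seeds of miR-183 and miR-182 were found in no other mature miRNA of the table.

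On assembly GRCm38.p6 the 3 genes lie on the minus strand of chromosome 6, inside the long non-coding RNA gene Mirc35hg (chr6:30158640-30174125), between the protein-coding genes Nrf1 and Ube2h. In the direction of transcription Mir183 (chr6:30169668-30169737) comes first, Mir96 (chr6:30169446-30169551) follows after 116 bases, and Mir182 (chr6:30165918-30165992) lies a further 3453 bases on. Mir183 begins 4388 bases after the start of Mirc35hg. The hairpin of Mir183 is shown because it is the precursor of the cluster whose arms both had probes on the array: in capitals are the guide arm, listed as miR-183, and the passenger arm, listed as miR-183*.

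Mir183 hairpin: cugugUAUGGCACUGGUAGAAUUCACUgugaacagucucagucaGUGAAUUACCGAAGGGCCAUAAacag

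**Figure D1:**
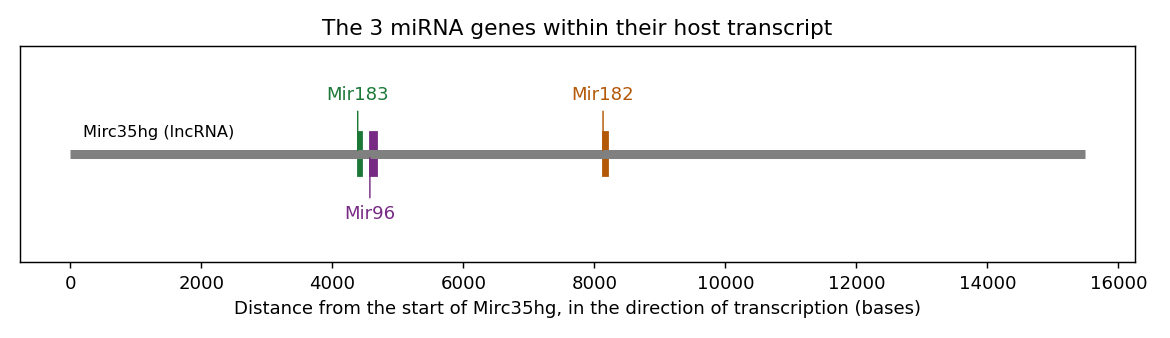
Position of Mir183, Mir96 and Mir182 (coloured boxes, to scale) within Mirc35hg (grey line), as distance in bases from the start of Mirc35hg in the direction of transcription. Mir183 begins 4388 bases from the start and is followed by Mir96 after 116 bases, whereas Mir182 lies 3453 bases further on.

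The 300 bases around the start of Mirc35hg (chr6:30174076-30174375, minus strand, RefSeq, GRCm38.p6) are shown because the 3 members share this start and their differences between groups were to be compared with each other. Capitals mark matches to 5 motifs searched on both strands, which were the nuclear receptor half-site AGGTCA, a direct repeat of that half-site with 1 base between (the form that PPAR and RXR bind together), the AP-1 site TGACTCA, the CCAAT box and the GC box GGGCGG.

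Mirc35hg promoter: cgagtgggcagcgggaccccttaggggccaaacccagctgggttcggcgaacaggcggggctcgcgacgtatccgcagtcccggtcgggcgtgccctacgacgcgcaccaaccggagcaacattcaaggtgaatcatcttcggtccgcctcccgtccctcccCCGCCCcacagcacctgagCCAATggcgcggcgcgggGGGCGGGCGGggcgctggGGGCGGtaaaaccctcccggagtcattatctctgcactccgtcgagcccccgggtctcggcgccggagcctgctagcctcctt

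The window held 4 GC boxes, of which a pair overlapped, and 1 CCAAT box. Its GC content was 70.3%, against a median of 52.7% over the 32851 mouse promoters of the same length, of which 35.7% held a GC box and 37.4% a CCAAT box. The letters of the half-site, of its direct repeat and of the AP-1 site were not in this window, and they were in 16.3%, 0.0396% and 5.2% of all promoters.

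Each member was measured by 2 probes of 10 spots each, so by 20 spots on an array. Signals are total gene signals, the software's summary of those spots in arbitrary intensity units, after background subtraction. Before normalization, the total gene signal ran over the 16 arrays from 53.7 to 158 for miR-183, from 161 to 441 for miR-96 and from 40.7 to 105 for miR-182. The error that the software attaches to each signal was 8.04 to 11.6% of it for miR-183, 7.29 to 8.47% for miR-96 and 9.64 to 15.9% for miR-182. No spot of a member was saturated. Spots well above background made up 97.8% of the 320 spots of miR-183 and 98.4% of those of miR-96, but 52.2% of those of miR-182, so that miR-182 rested on the dimmest measurement of the cluster relative to background.

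Values below are total gene signals after quantile normalization of the 16 arrays, on the log2 scale, on which 1 unit is a doubling. A difference on this scale compares a miRNA with itself between groups. Levels of different miRNAs are not set against each other, since their probes differ.

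miR-183, which heads the transcript, was measured in WT no UV at 5.94, 6.15, 6.53 and 5.99 log2 units on arrays 1 to 4, and in KO no UV at 6.23, 6.33, 6.29 and 6.63. After irradiation it was measured in WT UV at 6.96, 6.93, 6.93 and 7.13, and in KO UV at 7.41, 7.23, 7.23 and 6.69. All 8 irradiated arrays were above all 8 arrays without irradiation, and within either irradiation state the genotypes overlapped. Within a genotype, 13.6% of the 228 miRNAs tested were higher after irradiation without overlap in WT and 11.8% in KO. The share over both genotypes together was not counted. The lowest irradiated array, KO UV 4, was 0.06 above the highest array without irradiation, KO no UV 4. The group means were 6.15 ± 0.27 (SD, n = 4), 6.37 ± 0.18, 6.99 ± 0.10 and 7.14 ± 0.31.

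miR-96, the member between the others, was measured in WT no UV at 7.69, 8.22, 7.80 and 7.80 log2 units, and in KO no UV at 8.01, 8.06, 8.12 and 8.22. After irradiation it was measured in WT UV at 8.55, 8.28, 8.35 and 8.35, and in KO UV at 8.88, 8.67, 8.50 and 8.35. Again all 8 irradiated arrays were above all 8 without irradiation, with a gap of 0.06 between the lowest irradiated array, WT UV 2, and the highest of the others. As given for miR-183, 13.6% of the 228 miRNAs tested were higher without overlap in WT and 11.8% in KO. The share over both genotypes together was not counted. The group means were 7.88 ± 0.23 (SD, n = 4), 8.10 ± 0.09, 8.38 ± 0.12 and 8.60 ± 0.23.

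miR-182, the last member on the transcript, was measured in WT no UV at 5.91, 6.09, 5.81 and 5.62 log2 units, and in KO no UV at 5.70, 6.09, 5.99 and 6.47. After irradiation it was measured in WT UV at 6.29, 5.96, 6.17 and 6.33, and in KO UV at 6.60, 6.45, 6.78 and 6.29. Its groups overlapped each with the next: WT UV 2 was below the highest arrays without irradiation of both genotypes, and KO no UV 4 was above all 4 WT UV arrays. The group means were 5.86 ± 0.20 (SD, n = 4), 6.06 ± 0.32, 6.19 ± 0.17 and 6.53 ± 0.21.

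**Figure D2:**
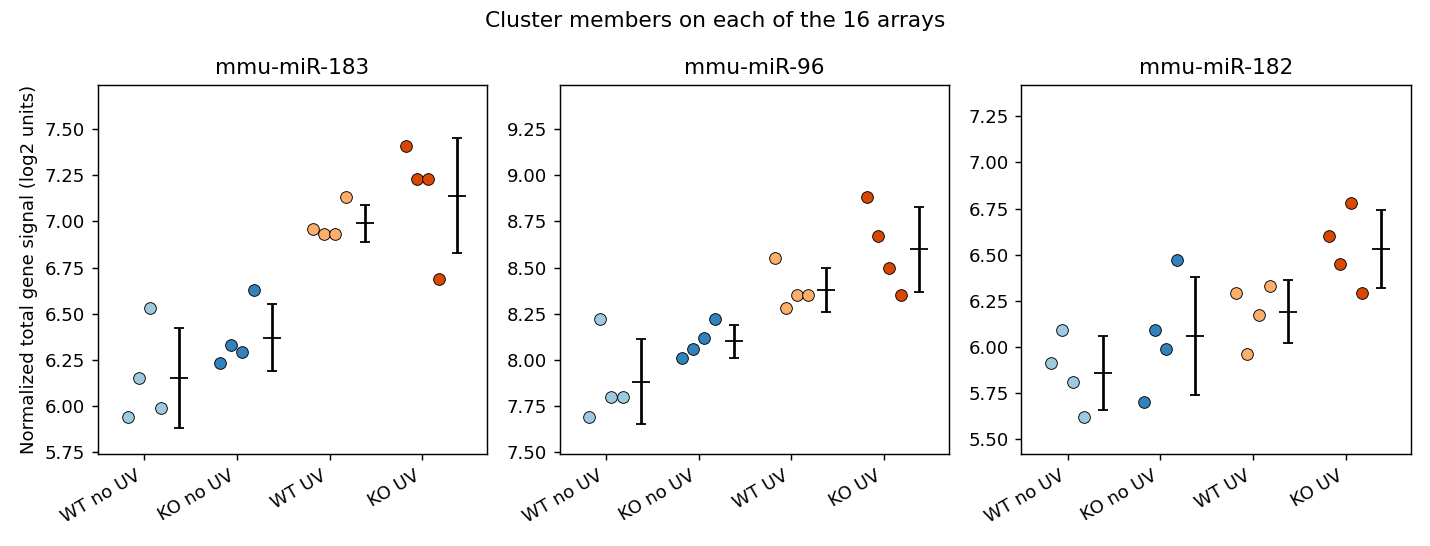
Normalized total gene signal of miR-183, miR-96 and miR-182 in log2 units on each array (points, replicates 1 to 4 from left to right) in the 4 groups, with the group mean and SD (bar, n = 4); each panel spans the same number of log2 units. For miR-183 and miR-96 every irradiated array lies above every array without irradiation, whereas the groups of miR-182 overlap. Within a genotype, 13.6% of the 228 miRNAs tested were higher after irradiation without overlap in WT and 11.8% in KO. The share of all miRNAs separated in this way over both genotypes was not counted.

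The 4 groups stood in the same order for all 3 members, from WT no UV through KO no UV and WT UV to KO UV. The group means of miR-200b, miR-200c, miR-429 and miR-203 stood in this order too. The shares of all miRNAs in this order, or without overlap at a step of it, were not counted. For miR-183 the step from KO no UV to WT UV was 0.62, and it was the only step at which the ranges of neighbouring groups did not overlap. For miR-96 that step was 0.28 and was likewise the only step without overlap. For miR-182 the steps were 0.20, 0.12 and 0.34, and all 3 pairs of neighbours overlapped.

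In wild-type skin, the comparison of irradiated with non-irradiated mice gave a higher signal of all 3 members, in direction under every normalization tried but not in size. miR-183 was 0.84 ± 0.16 (SE) log2 units higher, or 1.79-fold. miR-96 was 0.51 ± 0.12 higher, or 1.42-fold, and miR-182 was 0.33 ± 0.16 higher, or 1.25-fold. miR-183 and miR-96 were called at an adjusted p under 0.05 by limma over the 228 miRNAs tested, and miR-182 was not. In that comparison 9.21% of the miRNAs tested were called as higher, beside 2 of the 3 members. The groups did not overlap for miR-183 and miR-96, as for 13.6% of the miRNAs tested in that direction. The median difference of the members was 0.51, beside 0 over all miRNAs tested. With normexp background correction at an offset of 50 the differences were 0.30 for miR-183, 0.38 for miR-96 and 0.04 for miR-182, and with the 75th percentile of miRNAs found on every array that of miR-182 was 0.14.

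In Ppard-/- skin, the same comparison gave 0.77 ± 0.16 (SE) log2 units for miR-183, or 1.71-fold, 0.50 ± 0.12 for miR-96, or 1.41-fold, and 0.47 ± 0.16 for miR-182, or 1.38-fold. All 3 members were called, where 18.4% of the miRNAs tested were called as higher. The groups did not overlap for miR-183 and miR-96, as for 11.8% of the miRNAs tested, whereas those of miR-182 did. The median of the members was 0.50, beside 0 over all miRNAs tested. Without any normalization no member was called, where 130 of the 228 miRNAs tested were called in either direction. miR-183 was then at 0.24, and the differences of miR-96 and miR-182 turned to -0.10 and -0.09. The median of all miRNAs tested was itself -0.48, so that the members were higher relative to the other miRNAs of the same arrays. The call of miR-96 was lost under 4 alternatives, of which none left out an array. The call of miR-182 was lost under 16 of 31 alternatives, among them leaving out any of 8 single arrays (WT UV 1 and 3, KO UV 1, 2 and 3, and KO no UV 1, 2 and 3), under which its difference was between 0.35 and 0.49 and the fit called 37 to 64 miRNAs. Each slide held a single irradiation state, so that irradiation and slide cannot be told apart in these comparisons. On the slide of irradiated skin the SD of the negative control spots was 9.76 to 11.6 units and the local background 119 to 130, against 4.14 to 6.91 and 62.8 to 79.6 on the other slide, and the part of this in the differences was not tested.

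Without irradiation, Ppard-/- skin showed differences from wild-type skin of 0.22 ± 0.16 (SE) log2 units for miR-183, 0.22 ± 0.12 for miR-96 and 0.20 ± 0.16 for miR-182, or 1.15-fold to 1.17-fold. None of the 3 was called by limma or fell under an unadjusted p of 0.05. Of all miRNAs tested 0% were called and 36 fell under an unadjusted p of 0.05. The groups overlapped for all 3 members, and 1.32% of the miRNAs tested were higher in KO without overlap. Before normalization the differences were larger, 0.72, 0.77 and 0.66 for miR-183, miR-96 and miR-182, and all 3 were then called, as were 111 of the 228 miRNAs tested, in arrays where the median of all miRNAs tested was 0.52 higher in KO. Leaving out 1 array moved these small differences by over 1.5 times: miR-182 was at 0.07 without KO no UV 4 and 0.33 without KO no UV 1, miR-183 at 0.13 without KO no UV 4 and 0.35 without WT no UV 3, and miR-96 at 0.34 without WT no UV 2. The total signal per array was 254690 to 395200 in KO no UV and 170980 to 265980 in WT no UV.

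After irradiation, the difference of Ppard-/- from wild-type skin was 0.15 ± 0.16 (SE) log2 units for miR-183, 0.22 ± 0.12 for miR-96 and 0.34 ± 0.16 for miR-182, or 1.11-fold, 1.16-fold and 1.27-fold. No member was called, where 2.19% of the miRNAs tested were called in either direction, and only miR-182 fell under an unadjusted p of 0.05, as 21 miRNAs did in all. The groups overlapped for all 3 members, beside 1.32% of the miRNAs tested that were higher in KO without overlap. For miR-182 they did so by 0.04, KO UV 4 being below WT UV 4 and not above WT UV 1. The direction of miR-183 and miR-96 was not stable: without normalization they stood at -0.03 and -0.18, with the median of all miRNAs tested at -0.25, and miR-183 stood at -0.04 with the slide row as a covariate. On the slide of irradiated skin each genotype filled a row of its own, so that genotype and row cannot be told apart there. KO UV 4 was the lowest array of its group for all 3 members. Without it miR-183 was at 0.31 and miR-96 at 0.30, and without KO UV 1 they were at 0.07 and 0.13.

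The irradiation effect in WT minus that in KO, the interaction, was 0.06 ± 0.22 (SE) log2 units for miR-183, 0.01 ± 0.17 for miR-96 and -0.14 ± 0.22 for miR-182. No member was called or fell under an unadjusted p of 0.05, beside 2.19% of the miRNAs tested that were called in either direction. All 3 values were smaller than their standard errors. The sign turned for miR-183 under 4 other settings, and the value of miR-96 was 0 with the slide row as a covariate. Without normalization the interaction was 0.75 for miR-183, 0.95 for miR-96 and 0.62 for miR-182, the first 2 of them called. In that setting 138 of the 228 miRNAs tested were called, and the median of all was 0.77.

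**Figure D3:**
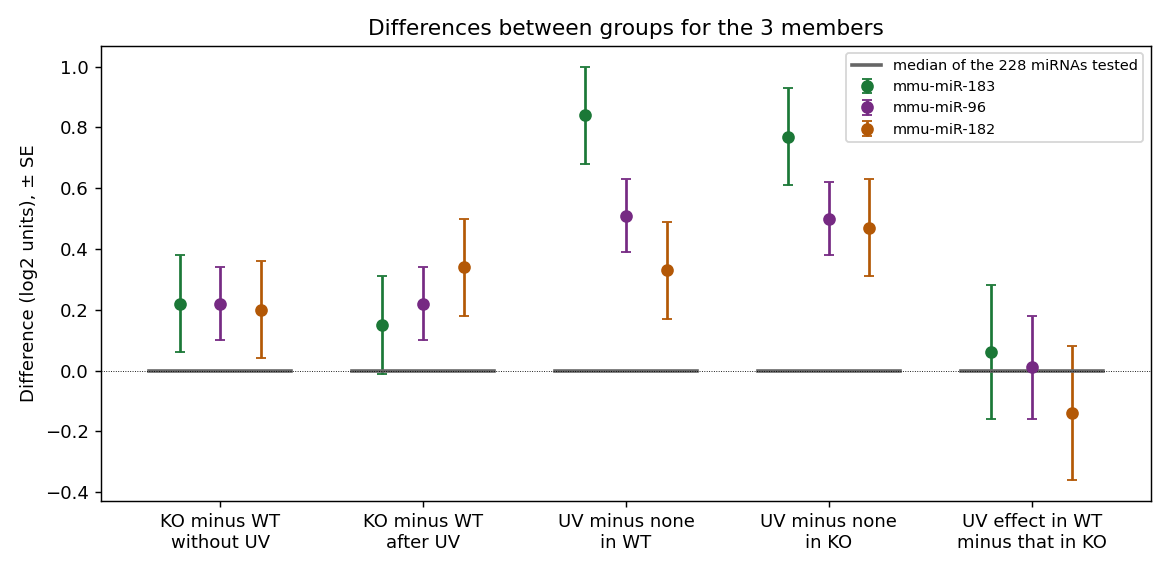
Differences between groups in log2 units for the 3 members (points, with SE from the limma fit to 16 arrays) in 5 comparisons, beside the median of the 228 miRNAs tested (grey line). The irradiation differences lie between 0.33 and 0.84, the genotype differences between 0.15 and 0.34 and the differences of irradiation effects between -0.14 and 0.06; without normalization the irradiation difference in KO turned for miR-96 and miR-182 and the genotype difference after UV turned for miR-183 and miR-96.

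The size of the irradiation difference was compared between members within the same array. The difference of miR-183 exceeded that of miR-96 by 0.33 log2 units in WT and 0.27 in KO, and that of miR-182 by 0.51 and 0.30. The difference of miR-96 exceeded that of miR-182 by 0.18 and 0.03. In all 6 cases the irradiated and non-irradiated arrays overlapped in this measure, and with normexp the WT difference of miR-183, 0.30, was below that of miR-96, 0.38, so that no order of the members is read from it. The differences of 7 of the 16 arrays from their group mean had the same sign for all 3 members.

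The pair of probes of each member cover stretches of its mature sequence that end a single base apart (mm9 positions chr6:30119711-30119728 and chr6:30119711-30119729 for miR-183, chr6:30119506-30119526 and chr6:30119506-30119527 for miR-96, chr6:30115962-30115976 and chr6:30115962-30115977 for miR-182, as the files list them). With each array scaled by its 75th percentile (over miRNAs found on every array), the probes of miR-183 gave irradiation differences of 0.57 and 0.62 log2 units in WT and 0.69 and 0.71 in KO. Those of miR-96 gave 0.47 and 0.47 in WT, and 0.40 and 0.32 in KO. For both miRNAs the probes thus pointed the same way. On this scale, however, the irradiated and non-irradiated arrays overlapped for both probes of miR-96 in either genotype and for the 19-base probe of miR-183 in KO, whereas the quantile-normalized gene signals did not overlap.

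The probes of miR-182 differed in how far they rose above background. The probe of the 16-base stretch had 159 of 160 spots well above background and gave 0.25 in WT and 0.45 in KO. The probe of the 15-base stretch had 8 of 160 spots well above background, 1 of them in WT UV and 0 in KO UV, and its unscaled signal was 2.35 to 14.9 units. No difference is given for it, since it is near background throughout. The gene signal of miR-182 thus rests almost wholly on the brighter probe. For that brighter probe the KO UV arrays were all above the WT UV arrays, with a difference of 0.32, which the quantile-normalized gene signal did not show. Probe and scaling differ at once between the probe signal and the gene signal.

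**Figure D4:**
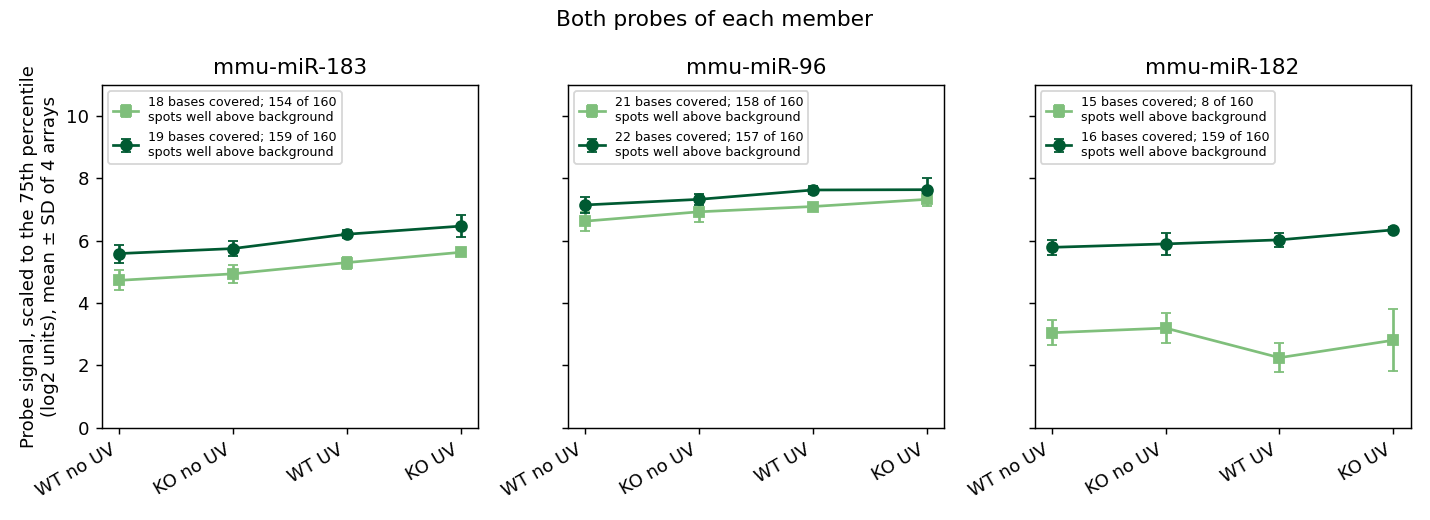
Signal of each of the 2 probes of miR-183, miR-96 and miR-182 in log2 units, scaled by each array's 75th percentile, as mean ± SD of the 4 arrays of each group; the legend gives the bases each probe covers and its spots well above background. Both probes of miR-183 and miR-96 have higher means in the irradiated groups, whereas the 15-base probe of miR-182, with 8 of 160 spots well above background, lies near background in all 4 groups.

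The passenger strand of miR-183, miR-183*, was the only passenger strand of the cluster on the array. It was detected on 0 of 16 arrays, none of its 320 spots was well above background, and its total gene signal before normalization was -4.38 to 3.34 units. It stayed under the floor of 19.4 signal units on every array and was not tested. Its mature sequence, from the 3′ arm of the hairpin above, carries an unrelated seed.

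mmu-miR-183-3p: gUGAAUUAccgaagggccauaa

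The other miRNAs of the array within 5 Mb on the same chromosome, by the coordinates of the files, were 6 in number. miR-592, miR-335-5p and miR-335-3p were detected on no array. miR-29a, known for its action on collagen messages and 893 kb away, was detected on all 16, and its differences were -0.30 ± 0.12 (SE) for KO minus WT without irradiation, -0.04 after it, -0.16 for irradiation in WT and 0.10 in KO, with no call. The passenger strands miR-29a* and miR-29b* were detected on 6 and 10 arrays, miR-29a* did not pass the detection filter, and miR-29b*, at or near the floor, had differences of 0.00. Of these neighbours only miR-29a and miR-29b* were tested, and neither was called by limma in any comparison. At 6.74 to 16.6 units before normalization, beside the floor of 19.4, miR-29b* could show little difference. miR-29a fell under an unadjusted p of 0.05 for KO minus WT without irradiation.

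The profile most like the members' mean profile over the 16 arrays, by the mean absolute difference of centred log2 values, was sought among the 164 other mouse miRNAs detected on all arrays. The 5 nearest were miR-200b (0.097 log2 units), miR-28 (0.137), miR-429 (0.140), miR-203* (0.153) and miR-872 (0.163), where the median of all 164 was 0.332. miR-200b and miR-429 belong to the miR-200 family, which holds epithelial cells in their epithelial state, and miR-203* is the passenger strand of the epidermal miR-203. The members themselves lay 0.160 (miR-96 and miR-182), 0.201 (miR-183 and miR-96) and 0.252 (miR-183 and miR-182) from each other. These distances are between single profiles and cannot be set against distances to an average. For irradiation, miR-200b gave 0.44 ± 0.11 (SE) in WT and 0.39 ± 0.11 in KO, and miR-28 gave 0.55 ± 0.10 and 0.48 ± 0.10.

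Epithelial miRNAs were listed as the miR-200 family (miR-200a, miR-200b, miR-200c, miR-141 and miR-429) with miR-203 and miR-205, which are typical of keratinocytes. All 7 were detected on all 16 arrays, as skin should hold them. In WT 4 of 7 were called as higher after irradiation, beside 9.21% of all miRNAs tested, and none as lower. The median of the list was 0.44 log2 units, beside 0 over all miRNAs tested. The largest was miR-200c at 0.83, from 10.06 to 10.89 (adjusted p = 0.000988 by limma over the 228). In KO 6 of 7 were called as higher, beside 18.4% of all miRNAs tested, and none as lower. The median of the list was 0.39, and miR-200c was again the largest at 0.80 (adjusted p = 0.00249 by limma). miR-200a, at -0.03, was the member of the list not called in KO. The count in KO was not stable: it was 1 of 7 without KO no UV 3 and 3 of 7 without KO UV 1 or without KO UV 2. With all arrays it was 0 without normalization, 2 with only the arrays compared, and 1 under the 75th percentile of miRNAs found on every array, with no filter, with the slide row as a covariate and under the methods' threshold (p under 0.001 and a fold of at least 1.5), which left 2 in WT. No epithelial miRNA was called between the genotypes without irradiation, where 2 fell under an unadjusted p of 0.05, or after it, where 1 did, or in the interaction, where 1 did. Without normalization, however, all 7 were called between the genotypes without irradiation and 5 in the interaction. The fit then called 111 and 138 of the 228 miRNAs tested. With no filter 1 was called between the genotypes after irradiation, as were 359 of 577 miRNAs in all.

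**Figure D5:**
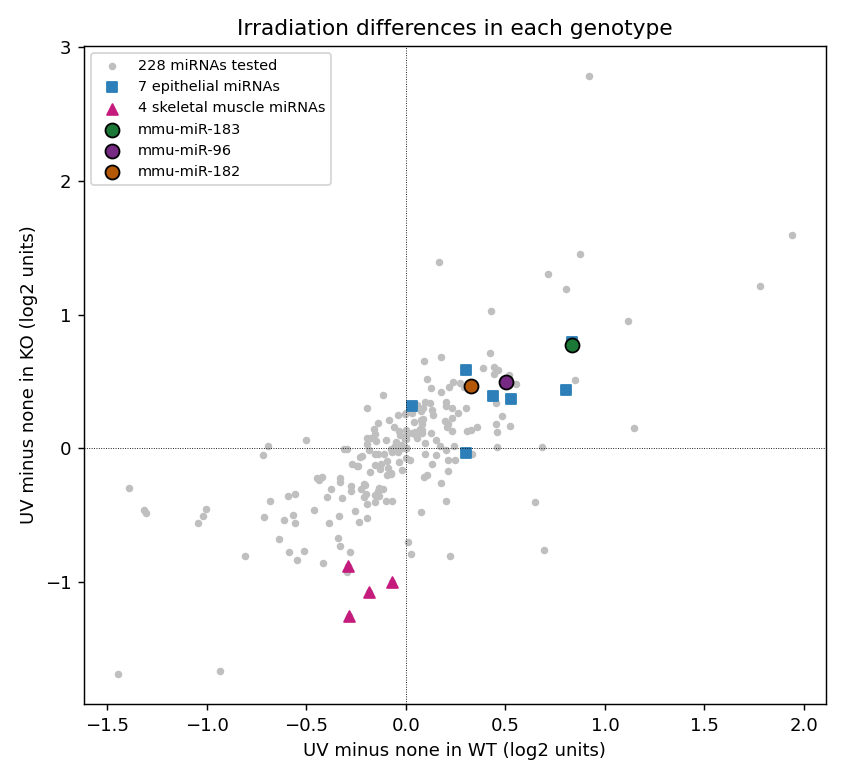
Difference of irradiated from non-irradiated skin in log2 units, in WT (horizontal axis) and in KO (vertical axis), for the 228 miRNAs tested (grey), 7 epithelial miRNAs (squares), 4 skeletal muscle miRNAs (triangles) and the 3 cluster members (large circles). The members lie above 0 on both axes, among the epithelial miRNAs, and the muscle miRNAs lie between -0.88 and -1.25 on the vertical axis; without normalization miR-96 and miR-182 turned below 0 in KO.

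Some markers of non-epithelial cells that whole skin can hold also differed between the groups, in patterns other than that of the members. In such samples a change in the number of cells cannot be told apart from a change in RNA per cell. All 4 skeletal muscle miRNAs (miR-1, miR-133a, miR-133b and miR-206) were detected on all arrays, and their summed normalized signal was 20453 to 41168, 40655 to 50330, 21899 to 25985 and 19464 to 24489 units. In KO all 4 were called as lower after irradiation, with a median of -1.04, and in WT none was, with a median of -0.23 and 0 of 4 under an unadjusted p of 0.05. Of the 228 miRNAs tested, 37 were called in WT and 68 in KO, 21 and 42 of them as higher. For KO minus WT without irradiation no muscle miRNA was called, with a median of 0.73. All 4 fell under an unadjusted p of 0.05 there, as 36 miRNAs did in all. Summed epithelial signal was 21539 to 25477, 22225 to 27764, 26081 to 31708 and 29320 to 43027 units, each range overlapping the next. The brightest of that list were miR-203 (9230 to 24584 units) and miR-205 (8230 to 12236). The group means of miR-200b, miR-200c, miR-429 and miR-203 were in the order in which the cluster members stood. Those of miR-200a, miR-141 and miR-205 were not. The 6 leukocyte miRNAs summed to 4550 to 6008, 2777 to 4532, 3491 to 4310 and 3003 to 3506 units, with miR-150 and miR-342-3p called as lower after irradiation in WT and, in KO, miR-150 as lower and miR-155 as higher. Of the 3 erythrocyte miRNAs 2 were detected on all arrays and miR-486 was called as lower after irradiation in KO. The 3 neuronal miRNAs miR-124, miR-9 and miR-9* were detected on no array, and of the melanocyte miRNAs miR-204 was detected on 14 arrays and miR-211 on 5. The part of these cell types in the differences of the members was not tested.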

How the data were processed

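Total RNA of dorsal skin (100 ng, labelled with Cy3) was hybridised to 1-colour Agilent mouse miRNA arrays. Spot intensity, on a linear scale, was deposited for each array, and per the file headers Agilent Feature Extraction 9.5.3.1 had corrected it for background and summed it to a total gene signal with a detection call per miRNA. The authors also deposited a table of log2 values, already normalized across arrays, which served as an alternative. Positions in the files are on mm9.

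Total gene signals were quantile normalized, raised to a floor of 19.4 units (the 5th percentile of detected signals, as its median across arrays) and put on the log2 scale (floor 4.28), which understates differences of dim miRNAs. Quantile normalization gives the same value to equal ranks. A group-means model was fitted to all 16 arrays with limma 3.58.1 in R 4.3.3 for the 228 miRNAs that some group showed on each of its 4 arrays, 167 of them on all 16. Prior and residual degrees of freedom were 0.802 and 12. A call is a Benjamini-Hochberg adjusted p under 0.05 over those 228 in each of 5 comparisons. The code was tested on simulated data. Groups came from the labels, which do not say that arrays are separate animals, although the study's methods give 4 animals per group; otherwise p-values measure technical spread. The number of arrays limits the precision. Total signal per array was 170980 to 395200 units, and 184 to 266 miRNAs were detected.

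Members, lists and tests were chosen with earlier results of these data known. The genes named were the 3 members, the passenger strand on the array, the 5 most alike profiles, the miRNAs within 5 Mb, and of the epithelial list the largest called rise and fall. Normalization, background correction, filter, floor, replicate block, slide row, test, threshold and each single array were varied. Sequences came from RefSeq (GRCm38.p6), where the 3 members and miR-183* all matched by name.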

Additional observations from a re-analysis of the deposited data

Results flagged for a closer look

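In WT UV, array 4 stood apart from the others for miR-183: it was at 7.13 log2 units where arrays 1 to 3 were at 6.96, 6.93 and 6.93, a gap of 0.842 of the group's whole range. The range itself was 0.20 log2 units, the narrowest of the 12 combinations of member and group. Such a gap arises by chance in about 1 in 20 groups of this size. No other member and group showed one.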

How the results depend on the processing

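For irradiation, miR-183 kept its call under all alternatives in WT and lost it in KO only without normalization, whereas miR-96 lost it in WT only under the methods' threshold and in KO under 4 alternatives. No member was called between the genotypes or in the interaction except without normalization. Of 154 recounts of called members 148 stayed within 1.5 times the count given. A fall from 3 members to 2 passes that rule, and the count given was 0 for both genotype comparisons and the interaction. The share of recounts that stayed thus says little about single members. Without normalization the called members were 3 for KO minus WT without UV, 0 for irradiation in KO and 2 for the interaction. Of the 228 miRNAs tested, 111, 130 and 138 were called in those comparisons. Under the 75th percentile of miRNAs found on every array 1 member was called for irradiation in KO, and under the methods' threshold (p under 0.001 and a fold of at least 1.5) 1 was called for irradiation in either genotype. With 1 array left out, 2 members were called for irradiation in WT and 2 to 3 in KO, and 0 elsewhere.

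Some differences turned in sign, and the cause was not tested. Without normalization they were -0.025 for miR-183 and -0.181 for miR-96 after UV, -0.095 for miR-96 and -0.086 for miR-182 for irradiation in KO, and 0.619 for the interaction of miR-182. The interaction of miR-183 was -0.107 and -0.069 under the 75th percentile of miRNAs found on every array and of all mouse miRNAs, -0.044 under an invariant set of 55 miRNAs and -0.018 under normexp with an offset of 50. With the slide row as a covariate, miR-183 after UV was -0.041 and the interaction of miR-96 was 0. With 1 array left out the interaction was -0.087 to 0.19 for miR-183 and -0.075 to 0.121 for miR-96.

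Replicate numbers were not taken to pair the arrays, since in no comparison did all 4 same-numbered pairs correlate over 0.1, a chosen cutoff. WT UV with KO UV missed it only at replicate 2, with 0.095 beside 0.35, 0.339 and 0.133. On the slide of irradiated skin the replicate number was also the slide column in both genotypes. Number and column cannot be told apart there. The correlation of deviations between same-numbered arrays was -0.376 to 0.46 over 24 pairs, 16 of them over 0.1, and an array was closest to its own number in 24 of 48 comparisons, where an even spread gives 12; the pairs of KO no UV with WT UV, which are not compared, were all over 0.1. With the replicate block the called members were 2 for irradiation in WT, 2 in KO (without miR-182) and 0 elsewhere, and 61 instead of 68 miRNAs were called for irradiation in KO. Dim signal limits miR-182 most.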
